A study of Homo sapiens with 24 samples.

Results

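The 10 human genes followed here through the m6A summit lists of 4 HepG2 lines encode histone acetyltransferases (EP300, CREBBP, KAT6A, KAT6B, KAT2A, KAT2B, KAT7 and KAT8) and subunits of the NSL complex (KANSL1 and KANSL3). A summit, the single base at which an m6A peak is highest, was assigned to one of these genes (the members) when it lay inside the gene's RefSeq span on human genome build hg38. Of the 59792 RefSeq genes with a placed span, 12977 held at least 1 summit, and so did 8 of the 10 members. The members held 384 of the 155075 summits. They were chosen from results of these same lists, among them the place of 1 EP300 summit in the R298P line, so the counts and positions are given as a description with no test.

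HepG2 is a long-established line of human liver cancer cells. Each of the 4 lines carries an integrated lentiviral cassette and was selected with puromycin: it expresses EGFP (the control), METTL14 as wild type (WT), METTL14 with the substitution R298P, or METTL14 with the substitution D312A. The labels describe overexpression and mention no removal of the cells' own METTL14. In m6A-seq, poly(A) RNA was broken into fragments of about 120 nt and pulled down with an antibody against m6A, and an input sample was kept for each. The labels give 3 biological replicates of each line, which makes 12 IP and 12 input libraries, and the series title places the question in which sites METTL3-METTL14 methylates when METTL14 is altered.

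N6-methyladenosine (m6A) is a methyl mark on adenosines of mRNA. It is written by METTL3, the catalytic subunit, together with METTL14, which helps hold the RNA, and the marked adenosine mostly lies in a short motif such as GGAC, often in long exons and near stop codons. Lysine acetyltransferases put acetyl groups on histone tails, a mark of open chromatin. EP300 (p300) and CREBBP (CBP) are paired coactivators that many transcription factors recruit. KAT6A (MOZ), KAT6B (MORF), KAT7 (HBO1) and KAT8 (MOF) are of the MYST family, KAT2A (GCN5) and KAT2B (PCAF) are the catalytic subunits of SAGA and ATAC, and KANSL1 and KANSL3 are subunits of the NSL complex, in which KAT8 works.

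The lists held 8669 summits (D312A replicate 2) to 15373 (EGFP replicate 1). Read depth is unknown, so a missing summit says only that the list does not hold one. Fewer methylated molecules and less RNA of a gene cannot be told apart in these lists. Of 12 hepatocyte genes, 12 held a summit in at least 1 library (4 to 12 per library), against 1 of 6 fibroblast, 3 of 6 blood and 2 of 5 endothelial genes. The file names set replicate 1 of every line apart from replicates 2 and 3.

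The members took a small and even part of the lists. They held 34, 33 and 35 summits in the EGFP libraries (34 ± 1, SD, n = 3) and 34, 31 and 32 in WT (32.3 ± 1.53, SD, n = 3). R298P had 33, 35 and 32 (33.3 ± 1.53, SD, n = 3), and D312A had 28, 23 and 34 (28.3 ± 5.51, SD, n = 3). The groups overlapped, and R298P stood 1.0 summit above WT, less than the spread between replicates. With only summits of a value of at least 10 the difference turned to −1. As a share of each list the members took 0.27% ± 0.0347 in R298P against 0.229% ± 0.017 in WT (SD, n = 3 each), and 0.256% ± 0.0257 in D312A against 0.245% ± 0.0283 in EGFP (SD, n = 3 each). The lowest D312A count came from the shortest list.

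**Figure D1:**
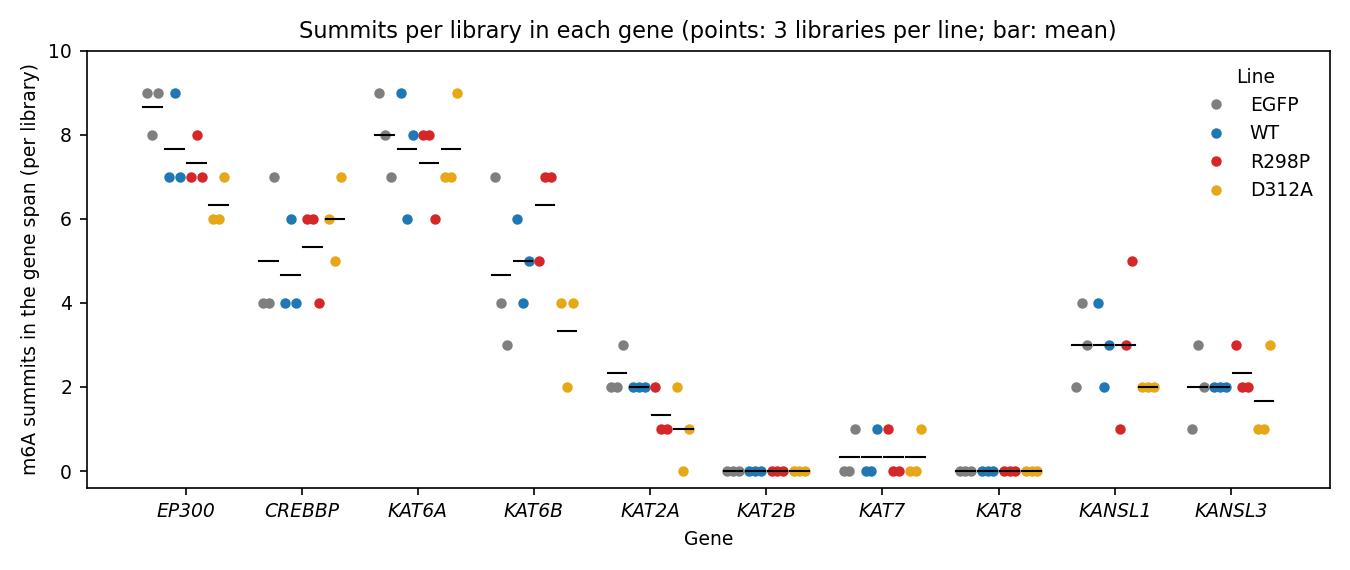
Number of m6A summits inside the span of each gene (y axis, summits per library) for the 10 genes (x axis); each point is 1 library, coloured by line, and each bar is the mean of the 3 libraries of a line. EP300 runs from 6 to 9 and KAT6A from 6 to 9, while KAT2B and KAT8 stay at 0 in all 12 libraries.

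EP300, on the plus strand of chromosome 22 (41092592 to 41180077), held 90 summits, with 6 to 9 in every library. Counts were 9, 8 and 9 in EGFP, 7, 9 and 7 in WT, 7, 8 and 7 in R298P, and 6, 6 and 7 in D312A. The D312A libraries (6.33 ± 0.577, SD, n = 3) lay below all 3 EGFP libraries (8.67 ± 0.577, SD, n = 3) and overlapped WT (7.67 ± 1.15) and R298P (7.33 ± 0.577). The D312A lists (8669 to 12357 summits) were also all shorter than the EGFP lists (12665 to 15373). The share of all genes that separate in this way is not given, so nothing about EP300 is read from it. These counts are not set against transcript length, so they give no order of methylation among the genes. Summits of the 12 lists that lay within 100 nt of each other were joined into 1 region, which gave EP300 11 regions.

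The first EP300 region (41092648 to 41092680) lies at the 5′ end, a median of 62 nt after the start of the span, and was present in 11 of the 12 libraries. A GGAC precedes it within the first 50 transcribed bases, and the stretch is shown because summits of 11 libraries follow it (RefSeq, GRCh38.p14, chr22:41092590-41092619, plus strand). The capitals mark GGAC.
EP300 start: atgagaaggaggaGGACagcgccgaggagg
The A of this GGAC is base 41092605, and the 11 summits lay 43 to 75 nt after it. Letters GGAC on the transcribed strand occur in the first 50 transcribed bases of 18.9% of the 35116 RefSeq promoter windows, and on the other strand in 17.6%. For the members the same search found 4 windows of 14 on the transcribed strand and 3 on the other, over the 8 genes in that table. The match in CREBBP, with its A at base 3880679, had 0 summits within 100 nt. A summit lay inside or within 100 nt after 7.78% of the 35116 windows, and 4 of the 14 of the members. A match is not a methylated site.

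The second EP300 region (41117576 to 41117599) lies 24999 nt into the gene and was present in all 12 libraries. The other EP300 regions crowd between bases 41177237 and 41179097, near the 3′ end, where 74.4% of the gene's summits lay within 5000 nt of the end of the span. Region 41178894 to 41178900 was present in all 12 libraries and its summits fell within 6 nt of each other. Regions 41177379 to 41177469 and 41178220 to 41178231 were each in 11 libraries and missing from 1 R298P library. Region 41177879 to 41177895 was in 8 libraries, 41178418 to 41178435 in 5, 41177237 to 41177251 in 4, and 41179091 to 41179097 in 3. D312A had no summit in regions 41178418 to 41178435 and 41177237 to 41177251, and R298P had none in 41179091 to 41179097.

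Within this cluster a single EP300 summit stood elsewhere in R298P. All 12 libraries had a summit between 41177616 and 41177711. It fell at 41177618, 41177616 and 41177617 in EGFP, at 41177627, 41177616 and 41177616 in WT, and at 41177631, 41177616 and 41177616 in D312A. In R298P it fell at 41177711, 41177706 and 41177708. The 9 libraries of the other lines thus spanned 16 bases. The 3 R298P libraries lay further towards the 3′ end and spanned 6 bases, and no library lay between these groups. The R298P mean was 88.7 nt from the WT mean (SD 2.52 nt in R298P and 6.35 nt in WT, n = 3 each) and 89.1 nt from the mean of the 9 others, and 75 nt separated the nearest libraries. Set against WT by replicate number the distances were 84, 90 and 92 nt.

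The R298P summits stood 42.8% to 56.3% of the way down their lists, and the 9 others 9.89% to 86.0%. The deposited −log10 value of this summit was 11.6, 13.8 and 14.6 in R298P, 16.6, 15.9 and 18.6 in WT, 15.1, 26.6 and 16.2 in EGFP, and 7.70, 10.4 and 16.3 in D312A. R298P lay below WT and EGFP and within the range of D312A. The share of all regions with this order is not given, so nothing about EP300 is read from it. At the remaining EP300 regions held by all 12 libraries the lines overlapped: R298P minus WT was −3.0 nt at 41117576 to 41117599 and 1.7 nt at 41178894 to 41178900. Region 41177379 to 41177469 was spread over more bases: the R298P libraries that held it had summits at 41177379 and 41177391, WT ran from 41177406 to 41177465, EGFP from 41177392 to 41177453, and D312A, from 41177383 to 41177469, overlapped all 3.

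**Figure D2:**
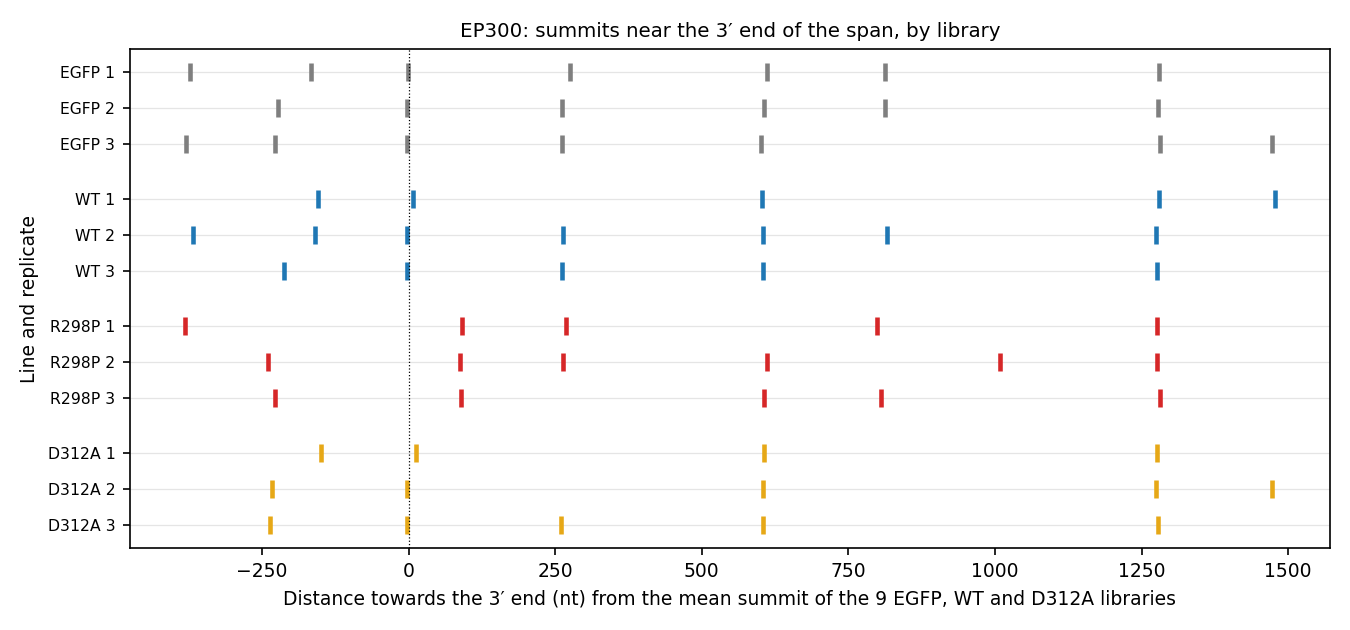
Summits of EP300 near the 3′ end, 1 row per library (y axis) and 1 tick per summit; the x axis is the distance in nt towards the 3′ end from the mean summit of the 9 EGFP, WT and D312A libraries (dotted line). Those 9 libraries have a tick at or near the dotted line, the 3 R298P libraries have theirs 89.1 nt to the right on average. The ticks furthest right that all 12 libraries share lie within 6 nt of each other, while those left of the dotted line are more spread.

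This place was part of the choice of EP300, so the same measure over all regions is given beside it. Of the 3401 regions held by all 12 libraries, the 3 R298P summits lay outside the range of the 9 others by at least 1 nt in 58 (1.71%) and by at least 50 nt in 7 (0.206%). The same count at 50 nt was 0 for EGFP, WT and D312A, and at 1 nt it was 17, 9 and 16. Among the 7 were regions in FBXO31 (97 nt), DUSP16 (86 nt), DCBLD2 (82 nt), EP300 (75 nt), FRYL (59 nt) and ING5 (52 nt), the distances being those between the nearest libraries. The members had 8 of the 3401 regions, and EP300 alone was among those apart. ING5 is itself a subunit of the KAT6A, KAT6B and KAT7 complexes. Its summits were at 241689975 to 241689988 of chromosome 2 in R298P and at 241690040 to 241690064 in the others.

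**Figure D3:**
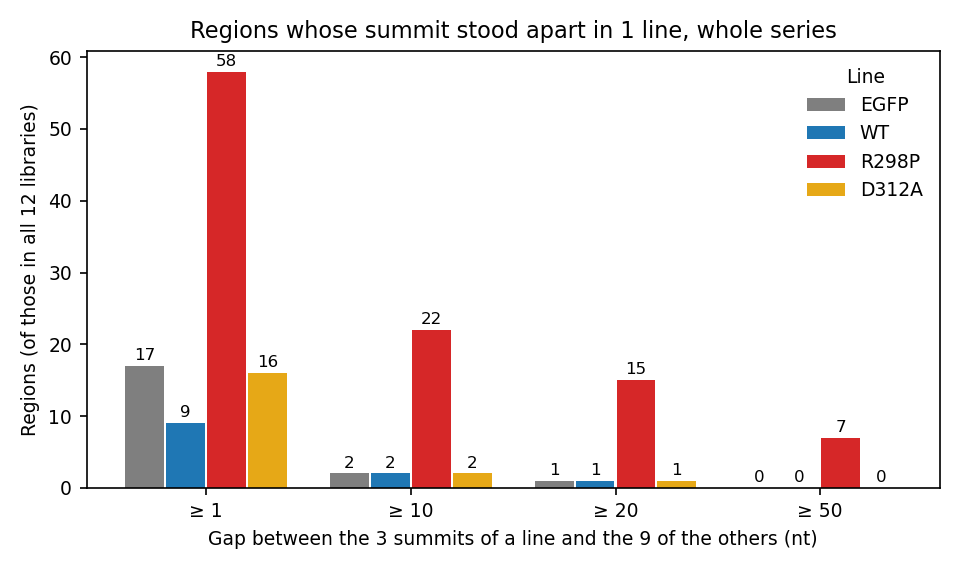
Number of regions, of the 3401 held by all 12 libraries, in which the 3 summits of a line lay outside the range of the 9 others (y axis), by the smallest distance counted (x axis, nt) and line. R298P has the tallest bar at each distance, from 58 at 1 nt to 7 at 50 nt, where the other 3 lines are at 0.

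Genes most like EP300 were sought as pairs of neighbouring regions, up to 500 nt apart and with summits joined within 50 nt, of which 1 was in all 3 R298P libraries and in none of the 9 others and its neighbour in the 9 others and no R298P library. Over the 12 libraries 9 pairs in 8 genes had this pattern, EP300 included. Among those with the highest-ranked summits were TAF5L, FRYL, ING5 and FBXO31. TAF5L is a subunit of SAGA, the complex of KAT2A: its summits were at 229594923 to 229594926 of chromosome 1 in R298P and at 229594775 to 229594793 in the other lines.

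CREBBP, the paralogue of EP300, lies on the minus strand of chromosome 16 (3725054 to 3880713) and held 63 summits in 11 regions. Counts were 4, 4 and 7 in EGFP, 4, 6 and 4 in WT, 6, 6 and 4 in R298P, and 6, 5 and 7 in D312A. The lines overlapped throughout. As in EP300 most summits, 77.8%, lay within 5000 nt of the 3′ end of the span, against 51.8% of the 111394 summits that lay in 1 protein-coding span of known strand. The members of known strand together had 57.5% there, with 51.7% in KAT6B, 65% in KAT2A, 27.3% in KANSL1 and 0% in KANSL3 and KAT7. Regions 3727829 to 3727876 and 3728504 to 3728521 were each in 11 libraries, with 1 R298P library missing from each.

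The CREBBP region at 3850457 to 3850584 was in all 12 libraries and ranked lowest in R298P. It lies a median of 30133 nt into the gene. Ordered by their −log10 value, the R298P summits stood 85.6%, 72.8% and 31.4% of the way down their lists, while the 9 others stood between 10.3% and 28.1%. The values were 7.72, 10.4 and 16.9 in R298P against 23.5 to 24.9 in WT, 21.4 to 25.1 in EGFP and 17.4 to 20.0 in D312A. No R298P library overlapped another line on either scale, although the R298P libraries differed widely among themselves (11.7 ± 4.72, SD, n = 3, against 24.2 ± 0.694 in WT). All 3 R298P summits stood further down than all 9 others in 1.29% of the 3401 regions (44) and further up in 1.21% (41). Of the 8 such regions in members, this was the only one that stood apart in either direction. R298P replicate 1 also had its summit elsewhere, at 3850457, while the other 11 libraries had theirs between 3850544 and 3850584.

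KAT6A, on chromosome 8 (41929479 to 42051987), held 92 summits in 14 regions. Counts were 9, 8 and 7 in EGFP, 9, 6 and 8 in WT, 8, 8 and 6 in R298P, and 7, 7 and 9 in D312A. No KAT6A region was gained or lost between any pair of lines. Its regions crowd near both ends of the span, from 41931936 to 41934310 at the lower-coordinate end and from 42048471 to 42049117 at the other, with 1 more in 10 libraries at 41941034 to 41941165. Regions 41932420 to 41932450 and 42049061 to 42049117 were in all 12 libraries, where R298P minus WT was 1.0 nt and 19.3 nt, and the lines overlapped at both. In region 41932879 to 41933006 a pair of R298P libraries had summits at 41932994 and 41933006, while R298P replicate 3, at 41932901, fell among the 8 others, which ran from 41932879 to 41932924.

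KAT6B, on the plus strand of chromosome 10 (74824936 to 75032624), held 58 summits in 10 regions. Counts were 7, 4 and 3 in EGFP, 6, 4 and 5 in WT, 5, 7 and 7 in R298P, and 4, 2 and 4 in D312A. The R298P libraries (6.33 ± 1.15, SD, n = 3) lay above all 3 D312A libraries (3.33 ± 1.15, SD, n = 3) and overlapped EGFP and WT. The D312A count of 2 came from the shortest list (8669 summits). The share of all genes that separate in this way is not given, so nothing about KAT6B is read from it. Regions 74843003 to 74843220 and 75030705 to 75030832 were in all 12 libraries. At the former R298P stood 104.0 nt from WT, with an SD of 107 nt in WT and 12.7 nt in R298P, so the difference was within the WT spread. Region 74843358 to 74843378 was in 3 WT libraries, 2 of R298P, 1 of EGFP and no D312A library. Region 75022061 to 75022122 was in 3 R298P libraries, 1 of EGFP, 1 of WT and none of D312A, with low values in R298P (7.90, 5.00 and 9.38).

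In KAT6B the GGAC with its A at 74825301 had 0 summits within 100 nt. Another GGAC, near a second start in the span, lies close to summits of 2 libraries only. This stretch (chr10:74826620-74826649, plus strand, GRCh38.p14) is shown because summits of R298P replicate 2 and D312A replicate 1 fell −5 and 21 nt from its A, base 74826640. Capitals mark GGAC again.
KAT6B start: tcaacgacaacaacagggGGACacaaaatg

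KAT7, on the plus strand of chromosome 17 (49788681 to 49835026), held 4 summits in all. There was 1 each in EGFP replicate 3, WT replicate 3, R298P replicate 1 and D312A replicate 3, in 3 regions, so no line differed from another. The region at 49788715 to 49788745 also lies in the span of FAM117A. KAT8 (chromosome 16, 31117664 to 31131393) held no summit in any of the 12 lists. Its NSL partners KANSL1 and KANSL3 did.

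KAT2A lies on the minus strand of chromosome 17 (42113111 to 42121367) and held 20 summits in 3 regions. Counts were 2, 2 and 3 in EGFP, 2, 2 and 2 in WT, 2, 1 and 1 in R298P, and 2, 0 and 1 in D312A. The region nearest the 3′ end, 42113270 to 42113292, was in 3 EGFP libraries, 2 of WT, 1 of D312A and none of R298P. Region 42113521 to 42113573 was in 3 WT libraries, 2 of EGFP, 1 of R298P and 1 of D312A. Region 42121080 to 42121123 lies a median of 266 nt after the start of the gene. It was in 3 R298P libraries, 2 of EGFP, 1 of WT and 1 of D312A, and was not called gained or lost between any pair. Its R298P values were 7.70, 14.3 and 5.05, and the summit of R298P replicate 3 stood 99.7% of the way down its list. KAT2B, the paralogue of KAT2A (chromosome 3, 20040446 to 20154404), held no summit in any list.

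KANSL1, the scaffold of the NSL complex, lies on the minus strand of chromosome 17 (46029916 to 46225367) and held 33 summits in 7 regions. Counts were 2, 4 and 3 in EGFP, 4, 2 and 3 in WT, 1, 3 and 5 in R298P, and 2, 2 and 2 in D312A. Region 46171369 to 46171380 was in 11 libraries, missing from R298P replicate 1. Region 46171520 to 46171541, towards the 5′ end of it, was in 3 R298P libraries (at 46171520, 46171521 and 46171527), 1 of EGFP, 1 of WT and none of D312A. Region 46031444 to 46031454, near the 3′ end, was in 3 WT, 3 D312A, 2 EGFP and 1 R298P libraries.

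KANSL3, on the minus strand of chromosome 2 (96580494 to 96638312), held 24 summits in 6 regions, which all lay between 96593539 and 96595293. Counts were 1, 3 and 2 in EGFP, 2, 2 and 2 in WT, 3, 2 and 2 in R298P, and 1, 1 and 3 in D312A. Region 96593539 to 96593542 was in the 3 R298P libraries and in none of the 9 others. Its R298P summits were at 96593539, 96593541 and 96593542, with values of 18.0, 13.8 and 21.9, which stood 22.8%, 46.9% and 16.3% down their lists. The nearest summits of other lines were those of WT replicate 1, EGFP replicate 3 and WT replicate 3, at 96593693, 96593699 and 96593796.

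Regions were then compared between lines by presence. A region was called gained in a line when all 3 of its libraries held a summit there and none of the 3 of the other line did, and lost in the opposite case, among regions held by at least 3 of the 6 libraries. Since the members were chosen from these lists, nothing about them is read from the shares. With 3 libraries against 3 an exact permutation test cannot give a p below 0.1. Where a library is left out below, the rule asks only for the libraries that remain, which is looser. Counts without a library can rise for this reason alone, so they do not show that a result depends on that library. Shares of all regions under the looser rule are not given.

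In R298P against WT 1 of the 38 regions in members was gained, KANSL3 96593539 to 96593542, and none was lost, where 1.54% of all 12761 regions were gained and 3.72% lost. Joined within 200 nt the KANSL3 region merges with the WT and EGFP summits beside it (96593539 to 96593796) and 0 regions were gained. Without WT replicate 1, or without WT replicate 3, 3 were gained, and without WT replicate 2 or R298P replicate 1, 2 were. Lost regions numbered 2 without WT replicate 2 and 1 without WT replicate 3 or any 1 R298P library. Against EGFP 2 of 39 were gained in R298P and 2 lost (all regions: 1.75% and 3.47%). Those gained were the KANSL3 region and CREBBP 3729264 to 3729348, and those lost were CREBBP 3729085 to 3729093 and KAT2A 42113270 to 42113292. Without EGFP replicate 1, 4 were gained and 4 lost. Against D312A 3 of 32 were gained in R298P, in KANSL3, KAT6B (75022061 to 75022122) and KANSL1 (46171520 to 46171541), and none lost (all regions: 3.22% and 0.799%). Without R298P replicate 1, R298P replicate 2 or D312A replicate 1, 5 were called. These 3 comparisons share the R298P libraries.

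D312A against WT had 1 region of 31 lost, KAT6B 74843358 to 74843378, and none gained (all regions: 2.77% and 0.243%). Without WT replicate 2, 4 were called, and without D312A replicate 3, 3 were. D312A against EGFP had none of 29 called (all regions: 2.54% lost and 0.364% gained), but 3 without EGFP replicate 3, 2 without EGFP replicate 2, and 1 without D312A replicate 1 or 3. WT against EGFP had none of 35 called (all regions: 0.854% gained and 0.534% lost), but 2 without EGFP replicate 1 and 1 without EGFP replicate 2, EGFP replicate 3 or WT replicate 2.

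Joining at 100 nt puts both EP300 places into 1 region, present in all lines, so the rule above does not call it. With summits joined within 50 nt, 4 of 39 regions in members were gained in R298P against WT and 2 lost (all regions: 1.92% and 4.02%), and 5 of 40 gained and 3 lost against EGFP (all regions: 2.2% and 3.85%). EP300 then had 1 region gained (41177706 to 41177711, 3 R298P libraries and none of the 9 others) and 1 lost (41177616 to 41177631, the 9 others and no R298P library). KAT6B had 1 gained at 75030233 to 75030270, again in R298P alone, and 1 lost against WT at 75030984 to 75031002. KANSL3 had a second gained region at 96595126 to 96595163.

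At this finer joining, regions held by all libraries of 1 line lay beside regions of the other lines in several members. A pair was counted, by a rule chosen after these values were seen, when a region in all 3 libraries of a line and at most 2 of the 9 others lay within 500 nt of one in at least 5 of the 9 others and at most 2 of the line. R298P had 7 regions in members that met the first condition, and 5 had such a neighbour. WT had 1 of 1, and EGFP and D312A had none of either. Over the whole series the counts were 141 of 333 in R298P, 30 of 235 in WT, 24 of 204 in EGFP and 9 of 30 in D312A.

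The 5 R298P pairs were in EP300, KAT6B, CREBBP, KANSL1 and KANSL3. In KAT6B the R298P summits were at 75030270, 75030245 and 75030233, and 6 of the 9 others had theirs at 75030368 to 75030378, 128 nt away by the medians. In CREBBP the pair was 3729264 to 3729348 and 3729085 to 3729093, the latter in 7 of the 9 others and no R298P library, 210 nt away. The former held the 3 R298P summits, from 3729269 to 3729332, and also those of WT replicate 2 (3729264) and D312A replicate 1 (3729348). R298P values there were low, at 6.19, 11.2 and 9.43. In KANSL1 the places were 154 nt apart, and R298P replicates 2 and 3 also held the summit of the other lines. In KANSL3 they were 234.5 nt apart, R298P replicate 1 also held that of the other lines, and D312A replicate 3 held a summit in the R298P region. In these pairs the R298P summit was on the 5′ side in KAT6B, CREBBP, KANSL1 and KANSL3. It was on the 3′ side in EP300, so the members did not share a direction. KANSL3 region 96593539 to 96593542, in R298P alone, was in no such pair and lay on the 3′ side of the nearest WT and EGFP summits.

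**Figure D4:**
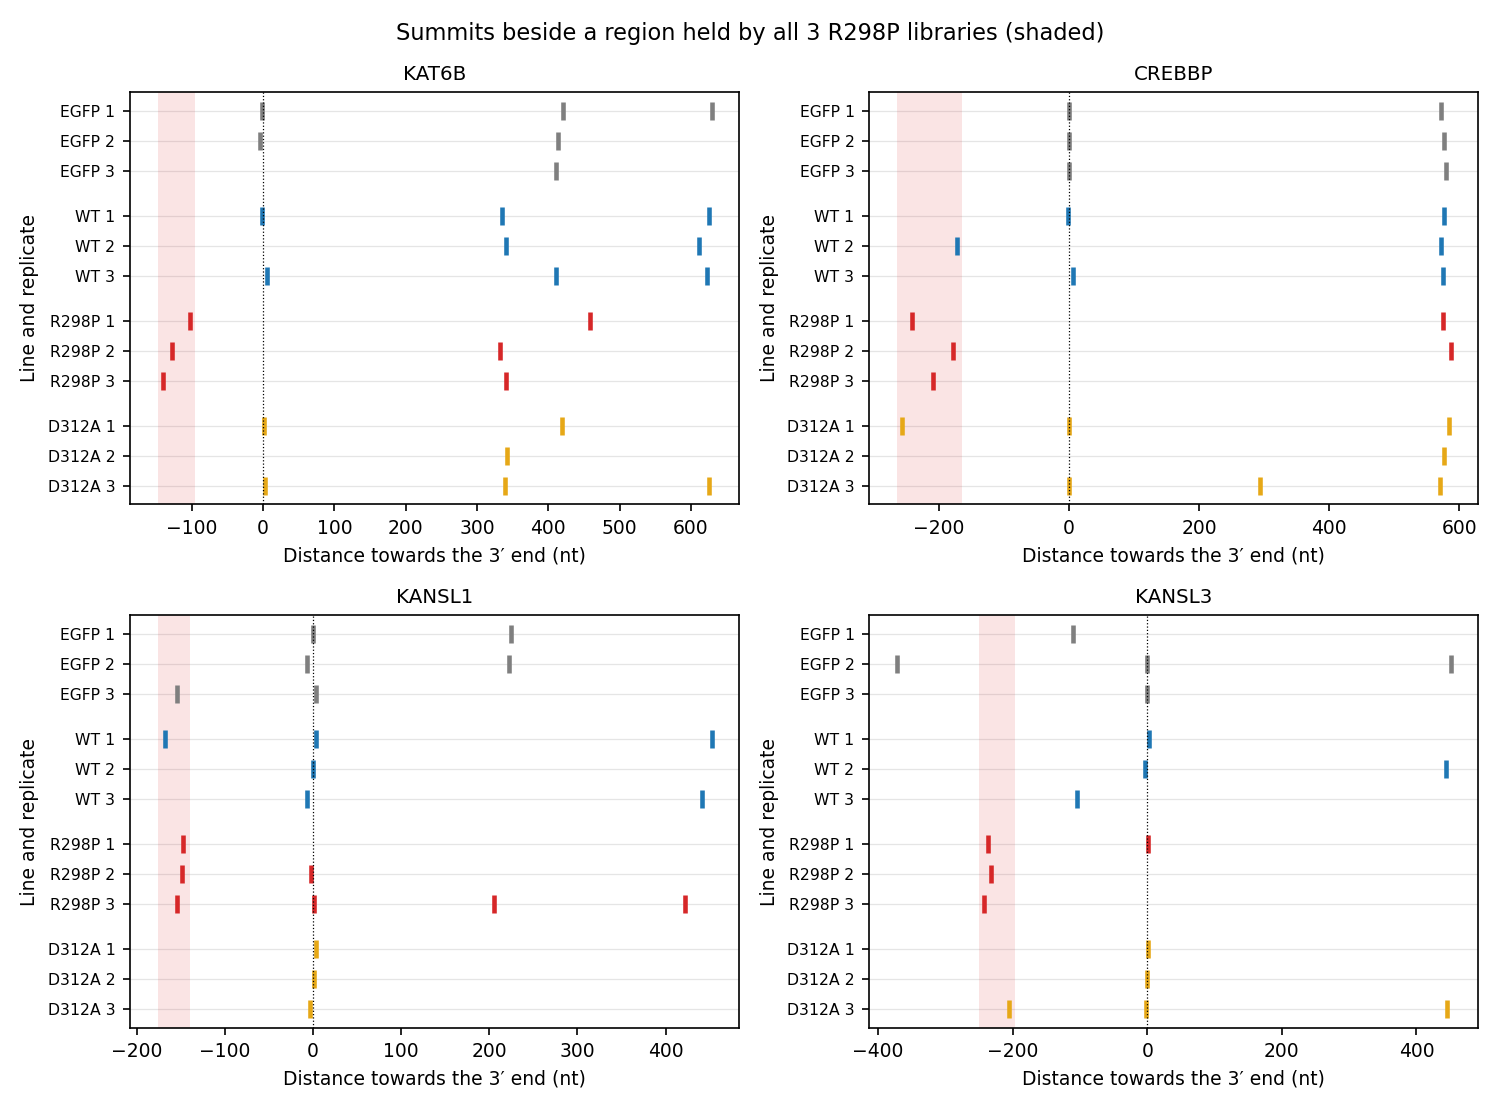
Summits around the R298P regions of KAT6B, CREBBP, KANSL1 and KANSL3, 1 row per library (y axis) and 1 tick per summit; the x axis is the distance in nt towards the 3′ end from the median of the neighbouring region of the other lines (dotted line), and the shaded band is the R298P region. In KAT6B the R298P ticks in the band are alone, whereas in KANSL1 R298P replicates 2 and 3 have ticks both in the band and at the dotted line.

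Another 93 genes of histone acetylation, grouped in lists by complex or role, were taken for comparison, and 77 of them held a summit. In R298P against WT 6 of their 137 regions were gained (4.38%) and 5 lost (3.65%), where all regions had 1.54% and 3.72%. These lists were chosen with earlier results of these data known, so nothing is read from the shares. In MSL2 and in TAF5L a gained and a lost region lay within 500 nt of each other, and both are counted. Among 11 NSL and MSL partners, MSL2, the ubiquitin ligase of the MSL complex, had 1 region gained (chromosome 3, 136151494 to 136151531) and 1 lost (136151663 to 136151703). Among 9 partners of KAT6A, KAT6B and KAT7, BRPF1, their scaffold, had 1 lost (chromosome 3, 9739159 to 9739198). Of 20 SAGA and ATAC genes, TADA2A, an adaptor of ATAC, had 1 gained (chromosome 17, 37477032 to 37477064), TADA2B, the adaptor of SAGA, had 1 lost (chromosome 4, 7055603 to 7055639), and TAF5L had 1 of each.

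None of the 14 regions of TIP60 complex genes that could be called was gained or lost. Of 9 other acetyltransferases and coactivators, NCOA2, a nuclear receptor coactivator, had 1 gained and NAA60, an N-terminal acetyltransferase, had 1 lost. Of 16 deacetylases, SIRT2 had 1 gained (chromosome 19, 38899578 to 38899580), and of 15 bromodomain genes BRD3 had 1 gained (chromosome 9, 134033217 to 134033249). The 1 lost region of the bromodomain genes is that of BRPF1, which is in both lists. The SIRT2 and BRD3 regions were in the 3 R298P libraries and in no other.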

How the data were processed

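Summit lists of the 12 IP libraries were analysed, and each library's line was taken from its title. The submitters' processing notes name build hg38, MACS2 2.1.2, STAR 2.7.9a, HOMER 4.9, bedtools 2.17.0, Trim Galore 0.4.4, FastQC 0.11.2, edgeR, featureCounts and Picard, without their settings. Each list was deposited per library, with a −log10 value for each summit, and the sources used here do not give whether it comes from p or q; the lowest value per list ran from 5.00 to 5.03. The depth of each library is unknown, and no interval that needs it is given.

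Summits were placed at the second column plus 1 and counted inside the RefSeq spans (GRCh38.p14) of the members, introns included. Summits within 100 nt were joined over all 12 lists with Python 3.11.15, pandas 2.3.3 and numpy 2.4.6, and figures were drawn with matplotlib 3.10.9. For the place of a summit and its rank, the summit of highest value per library and region was used. The calls of gained and lost regions and the measure of place were tested on simulated lists of isolated sites, with summits joined within 100 nt. Crowded sites, joining within 50 or 200 nt and the rule for neighbouring regions were not tested in this way. Alternatives were joining within 50 or 200 nt, lists of equal length (8669 summits), values of at least 10, spans of no other gene, replicates 2 and 3, and leaving out each library. The measure of rank within the list and the rule for neighbouring regions were added after the data were seen.

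Members, lists and rules were chosen with earlier results of these data known. Named regions are those called between any pair of lines, those in all 12 libraries and, for EP300, those in at least 3 libraries. Others are given where a comparison needed them and were chosen after their values were seen. Strand came from the RefSeq promoter table, which held 8 of the members and neither KAT8 nor KAT6A. The deposited expression table was not used here: none of its 42677 gene IDs was paired with a symbol, and no label matches the codes that head its 18 columns of per-library values. Exon positions were not used here, and sequence only from the RefSeq promoter windows. A gene that the likeness and place rules name is not reported here.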

Additional observations from a re-analysis of the deposited data

How the results depend on the processing

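The EP300 summit of R298P stood 86.8 to 92.3 nt from WT when 1 library was left out, a range that says little about stability since this place was part of the choice of the gene. Counts of regions called in members were small and moved with the processing. Leaving out 1 library, or keeping replicates 2 and 3 only, asks for fewer libraries per line. Higher counts there can follow from this looser rule alone, so they do not show dependence on a particular library. Shares of all regions are given only for joining within 100 and 50 nt. Other causes were not tested. Gained in R298P against WT, 1 as given, became 4 joined within 50 nt, 0 within 200 nt, 3 with lists of equal length, 3 with values of at least 10, 5 in replicates 2 and 3, and 1 to 3 without 1 library. Lost there, 0 as given, became 2 joined within 50 nt, 1 with lists of equal length, 1 with values of at least 10, 2 in replicates 2 and 3, and 0 to 2 without 1 library. Against EGFP, 2 gained became 5 within 50 nt, 0 within 200 nt, 5 in replicates 2 and 3, and 2 to 4 without 1 library, and 2 lost became 1 within 200 nt, 6 in replicates 2 and 3, and 2 to 4. R298P against D312A, 3 as given, became 6 within 50 nt, 5 with equal lengths, 5 with values of at least 10, 7 in replicates 2 and 3, and 4 to 5. D312A against WT, 1 as given, became 0 within 200 nt and 1 to 4. D312A against EGFP, 0 as given, became 1 in replicates 2 and 3 and 0 to 3. WT against EGFP, 0 as given, became 1 with equal lengths, 2 in replicates 2 and 3, and 0 to 2. The difference in summits per library, R298P minus WT, was 1.0 as given, −1 with values of at least 10, 2 in replicates 2 and 3, and 0.167 to 1.83 without 1 library.

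No replicate block was fitted, since the results come from no test; the report gives the EP300 distances by replicate number. Presence in a list is a threshold on a value that depends on depth, which is unknown, so a call of 3 against 0 libraries can turn on 1 summit near the threshold.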
